A study of Mus musculus with 8 samples.

Results

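The regions described here are the surroundings of 5 genes that are used as markers of bone marrow stromal cells: Cxcl12, Pdgfra, Pdgfrb, Lepr and Thy1. A window was set around each gene in mouse build mm9, and a peak belonged to a window when its midpoint lay inside. The windows were chromosome 6 from 117105000 to 117140000 for Cxcl12, chromosome 5 from 75540000 to 75600000 for Pdgfra, chromosome 18 from 61195000 to 61250000 for Pdgfrb, chromosome 4 from 101380000 to 101495000 for Lepr and chromosome 9 from 43840000 to 43865000 for Thy1. They spanned 35, 60, 55, 115 and 25 kb, 290 kb in all. The rule for the windows uses no measured value, but the genes and windows were chosen with earlier results of these data known. They held 3 of the 32017 peaks of KDM4B in wild-type cells and 30 of the 55306 peaks of H3K9me3 in knockout cells. They held 0 of the 35 KDM4B peaks of knockout cells, 0 of the 943 H3K9me3 peaks of wild-type cells, and 0 of the 38 and 28 peaks of total histone H3 in wild-type and knockout cells.

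The study profiled primary mesenchymal stem cells of mouse bone marrow by chromatin immunoprecipitation sequencing (ChIP-seq), in which an antibody recovers DNA bound by a protein or wrapped around a modified histone. The knockout cells (KO) came from Prx1Cre; Kdm4bf/f mice, and the wild-type cells (WT) from Prx1Cre; Kdm4bw/w mice, so the controls also carried the Cre transgene. The promoter Prx1 drives Cre in limb bud mesenchyme. Both genotypes had been kept in osteogenic medium for 4 hours, and animal ages were not given in the sources used here. Each antibody had 1 library per genotype. No difference between genotypes could therefore be tested, and the intervals below cover counting error only. For the KDM4B libraries the genotype comes from the sample titles alone.

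KDM4B is an enzyme that takes methyl groups off histone H3 at lysine 9. The trimethylated form of this residue, H3K9me3, is a mark of repressed chromatin. Stromal cells that surround the sinusoids of the marrow are known for abundant Cxcl12, the chemokine that retains blood stem cells in their niche, and for the leptin receptor encoded by Lepr. Pdgfra and Pdgfrb encode the alpha and beta receptors for platelet-derived growth factors, and Thy1 encodes the surface protein CD90. These are background facts on the genes. ChIP peaks give no expression levels, so the peaks could not show whether the cells expressed these markers.

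RefSeq promoter sequences were matched for 3 of the 5 genes. They are shown for these only, and none is shown for Pdgfrb or Thy1. All 5 windows held H3K9me3 peaks of KO cells, so CpG number cannot be compared between windows with and without the mark. CpG pairs, the sites of DNA methylation, are marked in the sequences. Each is the 250 bases before a start site, from build GRCm38.p6 and on the plus strand, with every CG in capitals; CG reads the same on both strands. Their positions cannot be set against the mm9 peaks.

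Cxcl12, chr6:117168285-117168534: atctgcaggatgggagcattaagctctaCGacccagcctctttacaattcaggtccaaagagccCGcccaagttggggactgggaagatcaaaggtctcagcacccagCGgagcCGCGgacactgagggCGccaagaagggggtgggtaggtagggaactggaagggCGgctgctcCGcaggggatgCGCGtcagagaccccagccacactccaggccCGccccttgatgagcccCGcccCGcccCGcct
Pdgfra, chr5:75152001-75152250: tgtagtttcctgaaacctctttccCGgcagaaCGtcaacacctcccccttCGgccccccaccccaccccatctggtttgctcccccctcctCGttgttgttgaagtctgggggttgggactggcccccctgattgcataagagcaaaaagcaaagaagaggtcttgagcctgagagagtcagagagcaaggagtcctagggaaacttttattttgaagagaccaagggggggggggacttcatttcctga
Lepr, chr4:101717157-101717406: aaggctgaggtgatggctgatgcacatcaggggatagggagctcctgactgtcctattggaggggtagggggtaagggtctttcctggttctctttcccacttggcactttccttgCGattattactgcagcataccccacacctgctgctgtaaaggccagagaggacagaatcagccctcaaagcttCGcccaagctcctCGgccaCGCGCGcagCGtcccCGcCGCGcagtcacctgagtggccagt

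Cxcl12 had 14 CG in this stretch and 64.4% G and C, and 29.4% of the 32851 promoters in the table had at least as many CG. Lepr had 10 CG, as many as in the sequence of its other start site, and 37.8% of promoters had at least as many. Pdgfra had 4, below the median of 6 over the table, and 62.2% had at least as many. A CG was present in 92.1% of all promoters, and these counts describe the sequences only.

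All 5 windows held H3K9me3 peaks in the knockout list, and none held one in the wild-type list. The KO counts were 4 peaks for Cxcl12, 4 for Pdgfra, 17 for Pdgfrb, 1 for Lepr and 4 for Thy1. KDM4B of WT cells was called in 2 windows only, with 1 peak for Pdgfra and 2 for Pdgfrb, and none of these 3 peaks overlapped an H3K9me3 peak of KO cells. As a background, consecutive windows of each gene's length were laid over the genome without regard to genes, so that they include sequence far from any gene. Among them, a KDM4B peak in WT and none in KO cells was found in 24.3% of genome windows of the length used for Pdgfra and in 23.1% at that of Pdgfrb, and the shares were 17.7, 34.1 and 14.2% at the lengths of Cxcl12, Lepr and Thy1, whose windows had none. KDM4B peaks lay in no window in KO cells, and neither did H3 peaks of either genotype. These lists were sparse everywhere. Over the genome, KDM4B of KO cells had 0.00136 peaks per 100 kb and H3K9me3 of WT cells 0.0367. H3 had 0.00140 in WT and 0.00109 in KO cells. The absence of their peaks from 290 kb is therefore not particular to these genes. For every peak list but that of H3 in WT cells, the sequencing depth, the control and the calling threshold are unknown here. A difference in peak number between genotypes cannot be told apart from a difference in any of these. The KO list of H3K9me3 was also the longer one over the whole genome. Among the genome windows, a KO peak with no WT peak was found in 25.6% of those of 35 kb, the length used for Cxcl12, in 33.4% of those of 60 kb, the length used for Pdgfra, and in 32.1% of those of 55 kb, the length used for Pdgfrb. The shares were 43.0% at the 115 kb of Lepr and 21.4% at the 25 kb of Thy1.

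**Figure D1:**
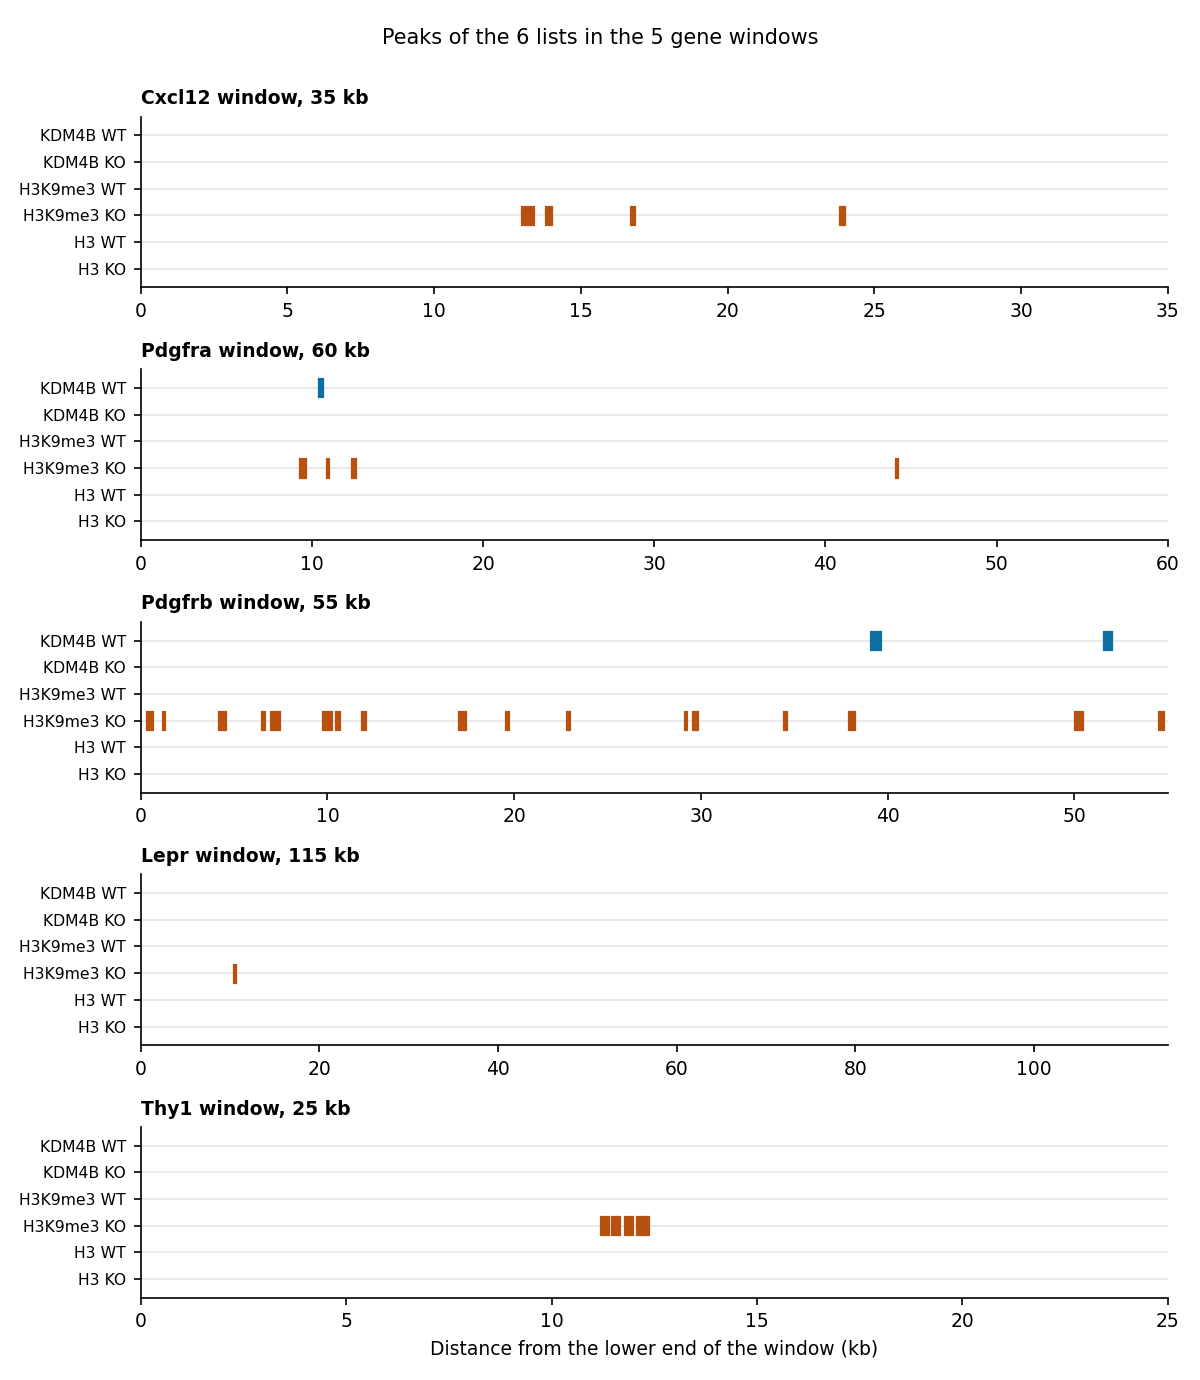
Peaks of the 6 lists in each gene window, drawn to scale against the distance from the lower end of the window in kb, with 1 row per antibody and genotype and 1 bar per peak. H3K9me3 peaks of KO cells appear in all 5 windows, KDM4B peaks of WT cells appear for Pdgfra and Pdgfrb, and the other 4 rows are empty in every window.

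Summed over the 5 windows, H3K9me3 of KO cells covered 9233 bp, or 3.18% of the 290 kb, and KDM4B of WT cells covered 1404 bp, or 0.484%. Over the genome, the same lists covered 0.665% and 0.941%. The density of KO H3K9me3 peaks was 10.3 per 100 kb in the gene windows and 2.15 per 100 kb over the genome, which includes sequence far from any gene. That of KDM4B was 1.03 per 100 kb in the gene windows and 1.25 over the genome. The H3K9me3 density rested largely on Pdgfrb, which held 56.7% of the 30 peaks on 19.0% of the length. Without the Pdgfrb window, 13 peaks remained in 235 kb, or 5.53 per 100 kb covering 1.48%, and 1 KDM4B peak remained, or 0.426 per 100 kb.

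**Figure D2:**
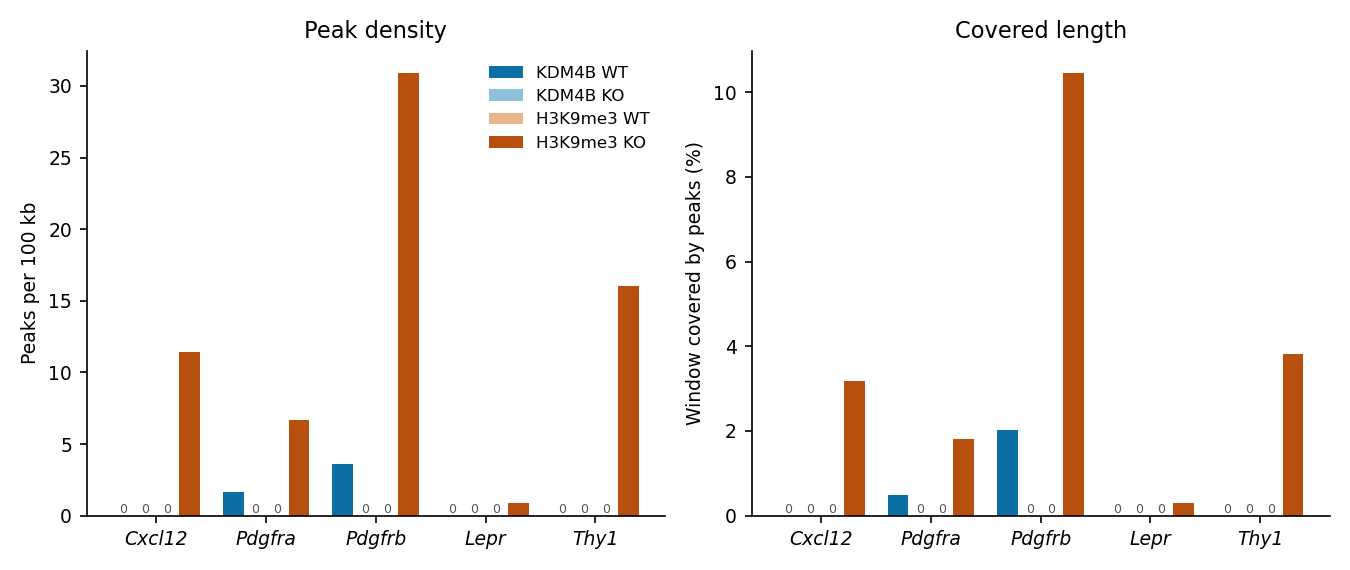
Peaks per 100 kb (left) and percent of the window covered by peaks (right) in the 5 gene windows, with bars for KDM4B and H3K9me3 in WT and KO cells, 1 library each and hence no error bars. Pdgfrb has the tallest H3K9me3 KO bar, at 30.9 peaks per 100 kb and 10.5% covered, and Lepr the shortest, at 0.870 peaks per 100 kb and 0.292%, while the H3K9me3 WT and KDM4B KO values are 0 in all windows.

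The H3K9me3 peaks of the windows were narrow, like most of their list. Their widths ran from 199 to 570 bp with a median of 292.5 bp, against a median of 256 bp for the whole KO list. Of the 30 peaks, 17 were at least as wide as that median, and 5, or 16.7%, measured 199 bp, the lower limit of the list, where 20.8% of all its peaks stood. The deposited KO list gives no height or score, so the strength of a peak could not be ranked.

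Cxcl12, the niche chemokine, had 4 H3K9me3 peaks in KO cells and no peak in any other list. They covered 1110 bp, or 3.17% of the 35 kb. The widest ran from 117117953 to 117118418 on chromosome 6, with 466 bp. The next, from 117118775 to 117119018, had 244 bp and followed it after 356 bp, so that this pair formed a region of 1.07 kb. Single peaks of 201 bp and 199 bp followed at 117121660 and at 117128802. Of the windows of this length over the genome, 6.59% held at least 4 such peaks, as did 3.90% of those on chromosome 6. The 35 kb on either side of the window had 0 H3K9me3 peaks, and the nearest ones outside lay 39.5 kb below and 55.0 kb above. KDM4B was far away. The gaps from the 4 H3K9me3 peaks to the nearest KDM4B peak of WT cells, at 117220461, ran from 91.5 to 102 kb, against a median of 17.5 kb for all KO H3K9me3 peaks. H3K9me3 without KDM4B was nevertheless the more frequent state, since 57.0% of the genome windows of this length that held KO H3K9me3 held no KDM4B peak.

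Lepr, the leptin receptor gene, had the lowest H3K9me3 density of the 5. Its single KO peak lay on chromosome 4 from 101390279 to 101390614, with 336 bp, which was 0.292% of the 115 kb. No other list had a peak in the window. A window of this length with at least 1 KO H3K9me3 peak was common, at 44.5% of the genome and 48.2% of chromosome 4, and the genome windows that held any had a median of 3. KDM4B came no nearer to the Lepr peak than 69.4 kb, at 101320216. Among genome windows of 115 kb with KO H3K9me3, 38.9% held no KDM4B peak. In the 115 kb below the window there were 1 KDM4B peak of 631 bp and 1 H3K9me3 peak of 205 bp, and the 115 kb above had none of either.

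Thy1, the CD90 gene, had the most compact group of peaks. Its 4 H3K9me3 peaks of KO cells lay within 1.20 kb on chromosome 9, from 43851176 to 43852375, and were separated by gaps of only 52, 118 and 77 bp. Their widths were 230, 199, 199 and 325 bp, together 953 bp, or 3.81% of the 25 kb. Merging peaks within 1 kb made a single region of these 4, whereas the 4 peaks for Cxcl12 made 3 regions and the 4 for Pdgfra stayed 4. Of the genome windows of 25 kb, 4.43% held at least 4 such peaks, and of those on chromosome 9, 4.67%. The neighbourhood of Thy1, unlike that of Cxcl12, also had called H3K9me3, with 2 KO peaks in the 25 kb below, one of them 0.112 kb from the edge, and 3 in the 25 kb above. No KDM4B peak lay in the window or in either of these neighbours. The nearest began at 43891950, so that the gaps from the 4 H3K9me3 peaks ran from 39.6 to 40.5 kb. Of genome windows of this length with KO H3K9me3, 61.9% held no KDM4B peak.

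Pdgfra, the alpha receptor gene, was one of the windows with KDM4B. The single KDM4B peak ran from 75550360 to 75550656 on chromosome 5. At 297 bp it was narrower than the list median of 509 bp, and 18.0% of the list was narrower still. It lay between H3K9me3 peaks of KO cells without touching them. The peak from 75549266 to 75549646, with 381 bp, ended 713 bp below it, and the peak from 75550807 to 75551009, with 203 bp, began 150 bp above it. Another peak, from 75552288 to 75552586, with 299 bp, lay 1.63 kb above it. The last, from 75584051 to 75584249, with 199 bp, was 31.5 kb farther on. Thus 3 of the 4 H3K9me3 peaks lay at most 1631 bp from the KDM4B site, a distance read from these peaks. The share of the whole KO list within that distance was not computed. In that list, 15.7% of peaks overlapped KDM4B and 59.6% lay more than 10 kb from it. Together the 4 covered 1082 bp, or 1.80% of the window, and 11.0% of the genome windows of this length held at least 4, as did 16.5% of those on chromosome 5. The 60 kb on either side had no KDM4B and no H3K9me3 peak. H3K9me3 of WT cells, which was absent from the window, had its nearest peak 151 kb below it.

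Pdgfrb, the beta receptor gene, had by far the most H3K9me3 peaks of the 5. Its 17 KO peaks covered 5752 bp, or 10.5% of the 55 kb, with widths of 199 to 570 bp and a median of 316 bp. The widest were those from 61201896 to 61202465, with 570 bp, from 61204696 to 61205250, with 555 bp, and from 61244986 to 61245441, with 456 bp, on chromosome 18. Of the 46677 genome windows of this length, 296 held at least 17 such peaks, or 0.634%. On chromosome 18 it was 1 of 1595, and that one did not touch the Pdgfrb window, whose peaks the genome windows divide between them. The nearest H3K9me3 peak of WT cells was 5096 kb away from the window. The alpha receptor gene, in a window of nearly equal length, had 4 peaks, and its density was 6.67 per 100 kb against 30.9 for Pdgfrb.

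Most H3K9me3 peaks of the Pdgfrb window lay below its first KDM4B peak, and both were present near the higher end. Counted by 10 kb from the lower end, H3K9me3 had 6, 4, 3, 2 and 0 peaks, followed by 2 in the last 5 kb, where they covered 760 bp and KDM4B 517 bp. The first KDM4B peak began 39.1 kb into the 55 kb window, after 15 of the 17 H3K9me3 peaks, so most of the window's length also lay below it. It ran from 61234066 to 61234655, with 590 bp, and the second from 61246524 to 61247040, with 517 bp. Both were close to the median width of the KDM4B list. The H3K9me3 peak from 61232875 to 61233237 ended 828 bp below the first, and the peak from 61244986 ended 1082 bp below the second. A still closer pair crossed the edge of the window. The H3K9me3 peak from 61249455 to 61249773 ended 758 bp below a KDM4B peak that began at 61250532, beyond the window. Of the 17 H3K9me3 peaks, 11 lay more than 10 kb from any KDM4B peak, as did 59.6% of the whole KO list.

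On the sides of the Pdgfrb window the lists differed in covered length. In the 55 kb below it, H3K9me3 of KO cells had 11 peaks covering 5.92% and KDM4B of WT cells had none. In the 55 kb above, KDM4B had 12 peaks covering 60.4%, and H3K9me3 had 4 covering 1.85%, still above the 0.665% of the genome. Of these 12 peaks, 4 formed a nearly unbroken block. They had widths of 10.7, 7.07, 5.77 and 5.84 kb, and the first ran from 61264910 to 61275570, beginning 14.9 kb beyond the window. It was 23rd by width in the KDM4B list. It contained 2 H3K9me3 peaks of KO cells, the last of the 4 contained 1, and the others contained 0. In the RefSeq gene table, of build GRCm38.p6, the gene next to Pdgfrb on that side is Csf1r, which encodes the receptor for macrophage colony-stimulating factor and is known as a gene of macrophages and their precursors. Csf1r was named after these peaks were seen, and its position in mm9 was not determined here. Whether cells of that lineage were present in the cultures was not tested.

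**Figure D3:**
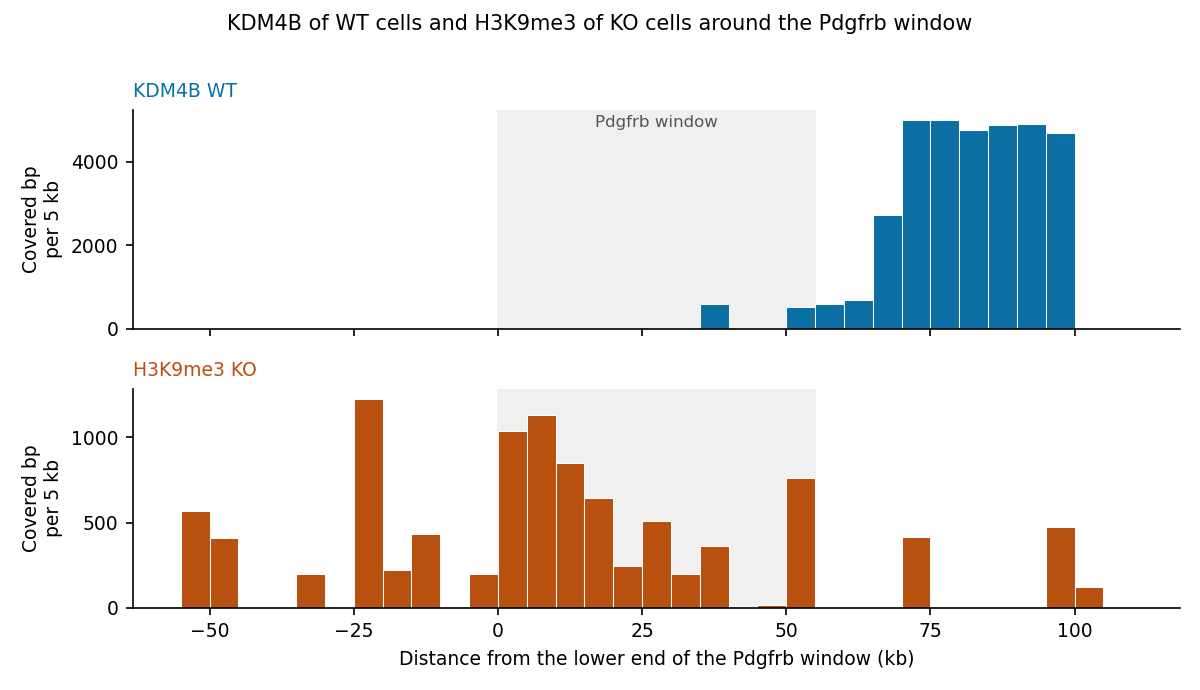
Base pairs covered per 5 kb by KDM4B peaks of WT cells (top) and H3K9me3 peaks of KO cells (bottom), against the distance in kb from the lower end of the Pdgfrb window, which is shaded; the vertical scales differ. KDM4B fills 4697 to 5000 bp of each 5 kb from 70 to 100 kb, while H3K9me3 reaches its highest value inside the window, 1131 bp, between 5 and 10 kb, and 1225 bp between 25 and 20 kb below it.

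The 3 KDM4B peaks of the marker windows overlapped no H3K9me3 peak of KO cells. The gaps were 150 bp for Pdgfra and 828 and 1082 bp for Pdgfrb, against a median of 4.20 kb over all 32017 KDM4B peaks. Overlap by at least 1 bp was found for 0 of 3 (95% exact binomial interval 0 to 70.8%), while 22.8% of all KDM4B peaks overlapped such a peak. With only 3 peaks, the interval includes the genome share. Over the genome, 35.3% of KDM4B peaks were at least as near, with an overlap or a gap of at most 1082 bp, and 12.6% had such a gap without overlap. That distance was set by the members after they were seen. Seen from the mark, 0 of the 30 H3K9me3 peaks overlapped KDM4B (0 to 11.6%), against 15.7% of the KO list. The peaks of a window are not independent of each other, so this interval and the next are too narrow. More than 10 kb separated 21 of the 30, or 70.0% (50.6 to 85.3%), from any KDM4B peak, against 59.6% of the list. These 21 included 11 of the Pdgfrb window. They also included every H3K9me3 peak of the Cxcl12, Lepr and Thy1 windows, which held no KDM4B peak to overlap.

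**Figure D4:**
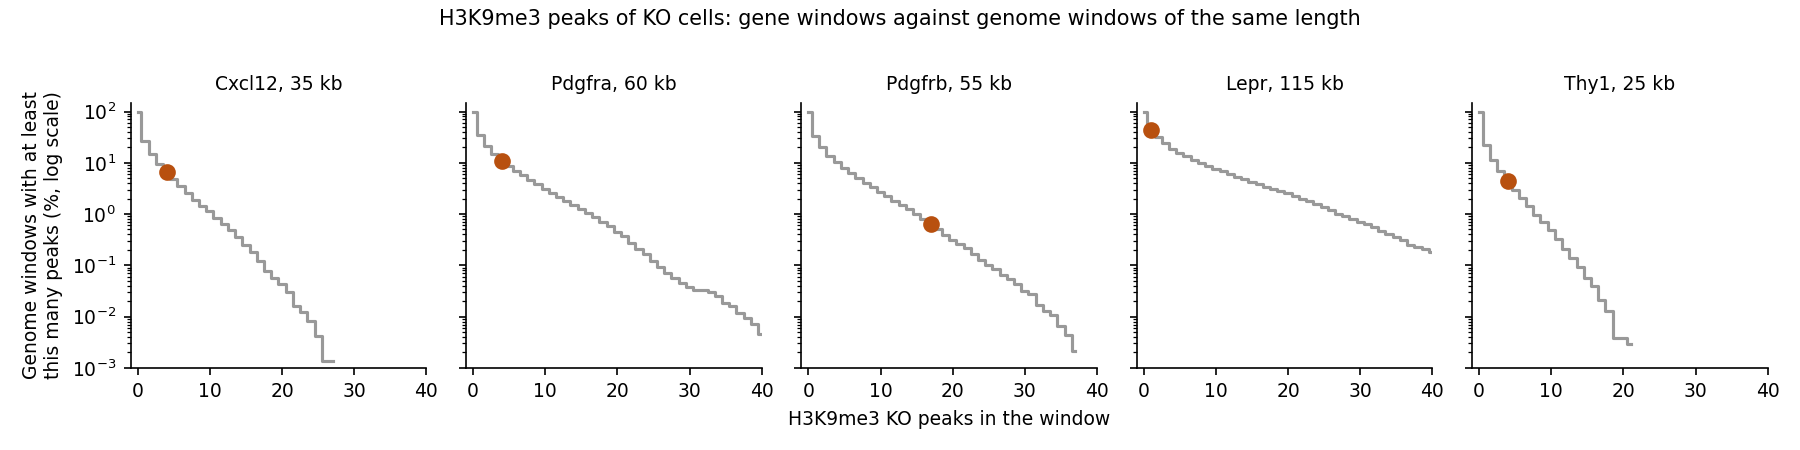
Percent of genome windows (vertical axis, log scale) that hold at least the number of H3K9me3 KO peaks on the horizontal axis, in 1 panel per gene with windows of that gene's length; the grey line is the genome and the dot the gene window. The dots lie at 6.59% for Cxcl12, 11.0% for Pdgfra, 0.634% for Pdgfrb, 44.5% for Lepr and 4.43% for Thy1.

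The first H3K9me3 peak from the lower end of each window began 13.0 kb in for Cxcl12, 9.27 kb for Pdgfra, 0.276 kb for Pdgfrb, 10.3 kb for Lepr and 11.2 kb for Thy1. These are distances from the edges of windows that differ in length. No gene model of build mm9 was used here, so it was not determined which peaks lay at a promoter, in an exon or in an intron.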

How the data were processed

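Peaks of KDM4B, H3K9me3 and H3 were taken from 6 deposited lists, 1 per antibody and genotype. The 2 input samples were not analysed here. Per the submitters' processing notes, the tools were Bowtie, SAMtools and, for KDM4B, MACS or, for the other antibodies, MACS2, with builds mm9 and hg19. Deposited positions were the only content of 5 lists. The H3 WT table came from MACS2 2.1.4 at a q-value threshold of 0.05, per the file headers, with 40420466 tags after filtering and 45099322 in the control. Its deposited pileup signal, fold enrichment ratio, −log10 p-value and −log10 q-value were not needed, since none of its peaks lay in a window. No other depth is known, so a missing peak shows only that none was called.

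The 5 genes and their windows were chosen with earlier results of these data known. Starts in the lists were read as 0-based and are given 1-based, except that the H3 WT table already had 1-based starts. For the 5 lists with positions only, this reading could not be checked. Their printed starts, widths and gaps could therefore be off by 1 bp. Every gene was named, every peak of a list with 5 or fewer in a window was described, and otherwise the widest 3 and the closest pairs. Genes of related pathways were to be added only with an annotation of the same build, which was not used here. Overlap meant 1 bp or more. Covered length was cut at the window edges. Background windows ran end to end between the first and last peak on each chromosome, without the mitochondrial sequence. Python 3.11.15, numpy 2.4.6 and scipy 1.17.1 were used. The counts and covered lengths were the same with bedtools 2.31.1 in 30 of 30 comparisons, and the counting was tested on simulated data with planted peaks. Intervals are exact binomial (Clopper-Pearson) at 95%. Alternatives were any overlap with the window, merging within 1 kb, peaks at least as wide as their list's median, windows widened by 10 kb, and overlap of 50% of the shorter peak or within 1 kb.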

Additional observations from a re-analysis of the deposited data

How the results depend on the processing

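The counts of H3K9me3 peaks of WT cells and of H3 peaks in the 5 windows were 0 also with any overlap and with windows widened by 10 kb. The other alternatives cannot raise a count of 0. The 30 H3K9me3 peaks of KO cells became 17 when only peaks at least as wide as the list median of 256 bp were counted, and 13 without the Pdgfrb window, an alternative chosen after seeing the data; both follow from fewer peaks or windows being counted. The 3 KDM4B peaks of WT cells became 5 with windows widened by 10 kb and 1 without the Pdgfrb window. The widening added peaks on the higher side of Pdgfrb, whose own count went from 2 to 4. The overlap of KDM4B with KO H3K9me3, 0 of 3, became 2 when peaks within 1 kb were counted as overlapping. Such nearness was found for 35.3% of all KDM4B peaks at the slightly wider limit of 1082 bp, and the share at 1 kb was not computed. For single windows with a count above 0, 22 of 28 values stayed within 1.5 times of it. Besides the rise for Pdgfrb, 5 fell. With the width limit, H3K9me3 of KO cells fell from 4 to 1 for Cxcl12, from 4 to 2 for Pdgfra and from 4 to 1 for Thy1, and KDM4B fell from 1 to 0 for Pdgfra. Merging made 1 region of the 4 Thy1 peaks. No paired analysis was possible because each antibody had 1 library per genotype. For the same reason no replicate could be left out. Unknown depth and thresholds in 5 of the 6 lists limit every count.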
